A study of Mus musculus with 6 samples.

Results

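Msx1, Msx2, Dlx3, Dlx5, Dlx6, Sp7 and Sox9 are 7 transcription factor genes of the bone-forming lineage outside the RUNX family, and they were taken by symbol from a deposited RNA-seq table of 36870 distinct symbols. All 7 were present, each in 1 row. The study compared 2 groups of 3 libraries from bone marrow mesenchymal stem cells (BMMSCs), the adherent cells grown from flushed femurs and tibias of C57BL/6 mice and labelled as passage 2 (the methods give passage 1). The siTet1/Tet2 group received siRNAs against both Tet1 and Tet2, and the control group received non-targeting siRNA by the treatment labels, although the sequencing methods call these cells vehicle-treated. The cells were selected by adhesion to plastic and no sort is described for these libraries, and the labels do not say whether the 3 libraries of a group came from separate animals or cultures. The p-values below therefore set the difference between the groups against the spread between these libraries, which may be technical.

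Osteoblasts, the cells that lay down bone, arise from mesenchymal progenitors through a cascade of transcription factors. BMP signals induce the homeobox genes of the MSX and DLX families, whose proteins bind AT-rich DNA and act partly in opposition, MSX2 holding cells in a proliferating state and DLX5 favouring differentiation. Runx2 commits the cells to the osteoblast lineage, and Sp7, a zinc-finger factor also called osterix, acts downstream of it and is required for mature osteoblasts. Sox9, an HMG-box factor, marks earlier osteochondral progenitors and directs the cartilage programme. Tet1 and Tet2 encode enzymes that oxidise 5-methylcytosine at CpG sites.

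Msx1 and Msx2 were the only 2 of the 7 symbols with a start-site window in the RefSeq sequence table (GRCm38.p6). Their windows are shown for that reason, and CpG were counted because a CpG is the site on which TET enzymes act. The 250 bases before the Msx1 start, chr5:37824586-37824835 on the minus strand, held 20 CpG dinucleotides, here in capitals.
Msx1: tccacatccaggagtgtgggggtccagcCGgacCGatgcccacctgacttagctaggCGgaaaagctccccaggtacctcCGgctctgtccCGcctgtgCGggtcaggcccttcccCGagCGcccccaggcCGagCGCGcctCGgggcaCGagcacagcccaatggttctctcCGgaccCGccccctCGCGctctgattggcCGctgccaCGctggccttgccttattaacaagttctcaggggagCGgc
The window of 300 bases that also takes in the 50 bases after the RefSeq start held 29 CpG in Msx1 and 22 in Msx2. The median over all 32851 windows of that length was 7.0, and 87.1% of windows had fewer CpG than Msx1 and 76.9% fewer than Msx2. The GC content was 70.0% and 61.0%. By the GENCODE annotation the Msx2 window lay wholly within untranslated sequence of the gene. None of it precedes the start in that annotation, unlike most of the Msx1 window. Only a stretch of 30 bases is therefore shown, chr13:53472950-53472979 on the minus strand. The letters TAATTA, a core that homeodomain proteins bind, are in capitals.
Msx2: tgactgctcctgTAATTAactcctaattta
TAATTA, which reads the same on both strands, was absent from the Msx1 window and is present in 5.29% of all windows. The letters GGGCGG, the core of a GC box, occurred in both windows on either strand, in each case 1 time, without overlap with TAATTA, and in 35.7% of all windows. Such matches describe the letters only, and no methylation was measured in these libraries.

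Expression was given as RPKM, a read number scaled to gene length and to the mapped reads of the library, which can be compared between genes. All 7 genes were expressed at a low level. In the control libraries the median gene tested had a mean of 9.19 RPKM, whereas the 7 genes had means between 0.180 and 1.96 RPKM, and each lay above only 3.27% to 22.7% of the genes tested. The read totals are not given in the table, but low values fall on whole reads at a depth of 32400000 to 38400000 reads per library. By that estimate and the longest annotated transcript of each gene, the values of the 7 genes rested on about 3 reads (Dlx3) to about 203 reads (Sp7) in a library. The targeted genes were examined first. Tet2 was between 2.573 and 4.081 RPKM in the control libraries and between 0.202 and 0.358 RPKM in the siRNA libraries. Tet1, between 0.032 and 0.098 RPKM in the controls, was at 0.01 RPKM or less after knockdown. It lay below 0.1 RPKM, the minimum mean for a test, and was not tested. Tet3, which was not targeted, was between 5.906 and 8.802 RPKM in the controls and between 6.959 and 8.478 RPKM in the siRNA libraries.

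Knockdown of Tet1 and Tet2 went with lower RPKM of most of the 7 genes. Msx1, Msx2, Dlx5, Dlx6 and Sp7 fell (limma, Benjamini-Hochberg adjusted p below 0.05 over the 13266 genes tested), so 5 of the 7 genes, or 71.4%, passed, and in all genes tested 29.8% passed and were lower. None of the 7 rose (0 genes, where 14.7% of all genes passed and were higher). Dlx3 and Sox9 did not pass. The median log2 fold change was -0.61 over the 7 genes and -0.09 over all genes tested, on the scale of log2(RPKM + 1), which understates the change of genes under 1 RPKM. These directions hold for RPKM as deposited, and set against single stromal markers, as described further on, the number of the 7 genes that were lower ran from 0 to 7. In 6 of the 7 genes every siRNA library was below every control library, against 35.9% of all genes tested. Since Dlx3 reached the minimum mean of 0.1 RPKM only through its control libraries, its place among the tested genes is not independent of its direction.

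**Figure D1:**
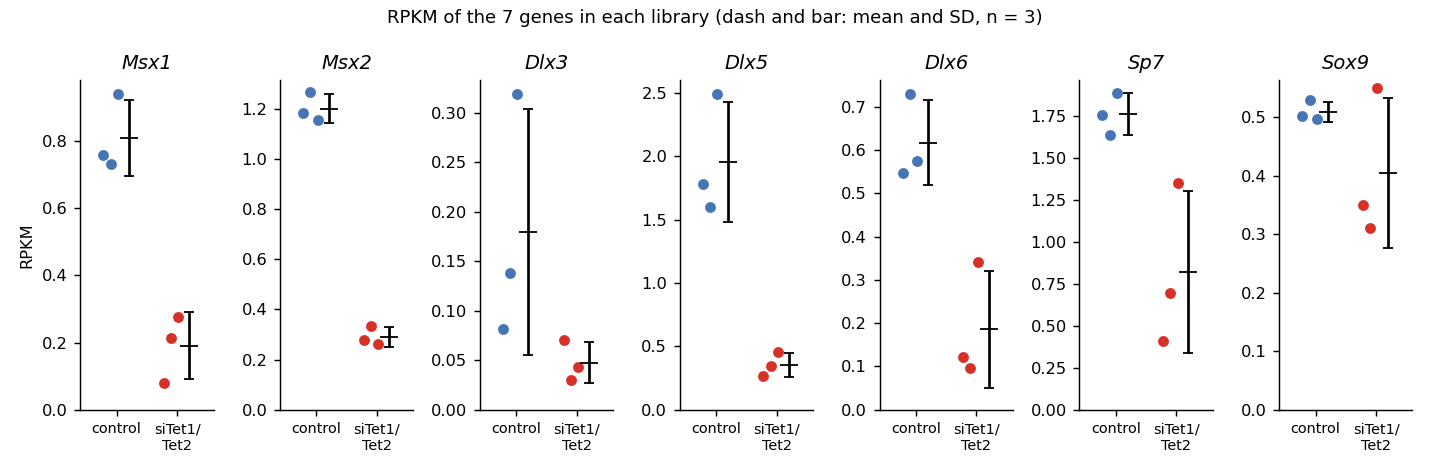
RPKM (vertical axes, from 0, a scale of its own for each gene) of the 7 genes in the 3 control libraries (blue) and the 3 siTet1/Tet2 libraries (red), with the group mean and SD (black, n = 3). The groups are apart in 6 genes, and in Sox9 the highest siRNA library, at 0.55 RPKM, lies above all controls.

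Msx1 and Msx2 encode closely related homeodomain repressors induced by BMP signals in skeletal and dental mesenchyme. Msx2 lies on chromosome 13 of GRCm38 (53466884 to 53473074, minus strand, 2 exons). It was at 1.182, 1.264 and 1.153 RPKM in control replicates 1, 2 and 3 and at 0.276, 0.334 and 0.261 RPKM in the siRNA replicates. The 2 groups were far apart and tight, with about 91 to 108 reads in a control library and 23 to 32 in an siRNA library. The mean fell from 1.2 ± 0.0576 to 0.290 ± 0.0386 RPKM (SD, n = 3), to 24.2% of the control level, and the log2 fold change was -0.77 (95% interval -0.92 to -0.62, adjusted p = 5.76e-05 from limma). Msx1, on chromosome 5 (37820485 to 37824583, minus strand, 2 exons), was at 0.758, 0.731 and 0.94 RPKM in the controls and at 0.081, 0.214 and 0.277 RPKM after knockdown. All siRNA libraries were again below all controls, but they differed 3.42-fold among themselves, where those of Msx2 differed 1.28-fold, and the lowest rested on about 6 reads. The mean of Msx1 was 23.5% of the control level, nearly that of Msx2, with a log2 fold change of -0.61 (95% interval -0.80 to -0.41, adjusted p = 0.000699 from limma). Msx1os, named as an opposite-strand RNA of Msx1, was listed at the lowest value of the table, 0.001 RPKM, in every library.

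The DLX genes encode activators of osteoblast genes, and Dlx5 and Dlx6 form a pair that lies 9.24 kb apart on chromosome 6 and is transcribed in opposite directions. Dlx5 (6877805 to 6882085, minus strand, 3 exons) had the highest control level of the 7 genes and the largest fall. The controls gave 1.783, 1.598 and 2.493 RPKM and the siRNA libraries 0.268, 0.344 and 0.456 RPKM. Every siRNA library was far below the lowest control library, and the mean fell to 18.2% of the control level, from 1.96 ± 0.472 to 0.356 ± 0.0946 RPKM (SD, n = 3). The log2 fold change was -1.12 (95% interval -1.39 to -0.84, adjusted p = 0.000162 from limma). The study called genes altered at a fold change over 2 with p under 0.05, and it named Msx2 and Sp7 among them. With these thresholds set here on the log2(RPKM + 1) scale, before adjustment, Dlx5 alone passed. On that scale 5.63% of all genes tested passed and were lower. Without control replicate 3 the log2 fold change of Dlx5 was -0.99, and none of the 7 genes passed (0 genes). With the fold taken as a ratio of the group means, which uses no pseudocount, 5 of the 7 genes passed both thresholds, all lower. Of all genes tested, 11.8% passed both and were lower. Dlx3 was 3.77-fold lower by that ratio but did not reach p under 0.05. By that ratio Msx2 was 4.13-fold and Sp7 2.15-fold lower.

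Dlx6 (6863334 to 6868568, plus strand, 3 exons) was at 0.547, 0.729 and 0.575 RPKM in the controls and at 0.121, 0.096 and 0.342 RPKM after knockdown. It was lower in all siRNA libraries, of which replicate 3 stood well above the other two. The mean was 30.2% of the control level and the log2 fold change -0.45 (95% interval -0.67 to -0.24, adjusted p = 0.00508 from limma). The ratio of Dlx5 to Dlx6 was 3.26, 2.19 and 4.34 in the controls and 2.21, 3.58 and 1.33 in the siRNA libraries, so the groups overlapped (two-sided exact permutation p = 0.4). Dlx6os1 and Dlx6os2, antisense genes that overlap Dlx6, were listed at 0.001 RPKM in all libraries. The use of strand in the counting is not given in the sources used here, so reads of these genes and of Dlx6 cannot be told apart. Dlx3, a gene of tooth, hair and osteoblast differentiation on chromosome 11 (95120119 to 95125296, plus strand, 3 exons), was the lowest of the 7. It was at 0.082, 0.138 and 0.319 RPKM in the controls, or about 8, 12 and 27 reads, and at 0.07, 0.03 and 0.043 RPKM after knockdown, where about 7, 3 and 4 reads lay behind the values. The group means, 0.180 and 0.0477 RPKM, differed 3.77-fold, but the control libraries spread 3.89-fold among themselves, and the difference did not pass (log2 fold change -0.17, 95% interval -0.35 to 0.02, adjusted p = 0.130 from limma).

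**Figure D2:**
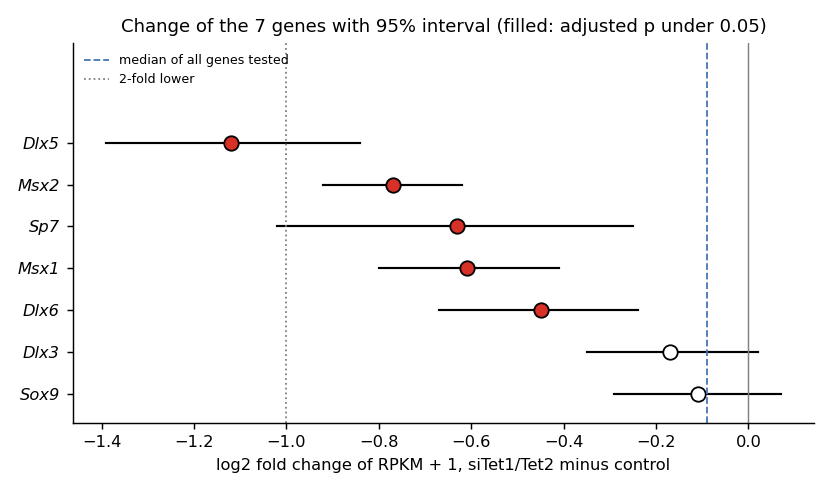
Log2 fold change of RPKM + 1 (horizontal axis, siTet1/Tet2 minus control) of the 7 genes with its 95% interval, filled where the adjusted p was under 0.05. Dlx5 is farthest to the left at -1.12, and the intervals of Dlx3 and Sox9 include 0.

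Sp7, on chromosome 15 (102356606 to 102367182, minus strand, 2 exons), was second to Dlx5 in the controls, with 1.758, 1.635 and 1.888 RPKM. In the siRNA libraries it was at 0.409, 0.695 and 1.35 RPKM, all below the controls but 3.30-fold apart, whereas the controls differed 1.15-fold. The mean fell to 46.5% of the control level, from 1.76 ± 0.127 to 0.818 ± 0.482 RPKM (SD, n = 3), and the log2 fold change was -0.63 (95% interval -1.02 to -0.25, adjusted p = 0.0156 from limma). The fall of Sp7 was the least firm of the 5. Without siRNA replicate 2 the adjusted p was 0.058, and the log2 fold change without siRNA replicate 1, 2 or 3 was -0.47, -0.60 and -0.84. On the side of higher coordinates its neighbour is a family member, Sp1, 39.0 kb away, a widely expressed factor at 10.8 RPKM in the controls and 12 RPKM after knockdown, which did not pass (adjusted p = 0.224 from limma).

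Sox9, on chromosome 11 (112782224 to 112787760, plus strand, 3 exons), was the only 1 of the 7 whose groups overlapped. It was at 0.501, 0.529 and 0.497 RPKM in the controls and at 0.35, 0.311 and 0.55 RPKM in the siRNA libraries. The controls lay within 1.06-fold of each other, and siRNA replicate 3 exceeded all of them. The mean was 79.3% of the control level (log2 fold change -0.11, 95% interval -0.29 to 0.07, adjusted p = 0.296 from limma), and after quantile normalization the difference was 0.06. The values rested on about 49 to 81 reads in each library, more than those of Msx1 and Dlx6 in the same library. By mean level Sox9 moved the sixth place among the 7 genes to the second.

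The order of the levels differed between the groups. In the controls, by mean RPKM, it was Dlx5, Sp7, Msx2, Msx1, Dlx6, Sox9 and Dlx3, and neighbours in that order did not overlap except Dlx5 and Sp7. In the siRNA libraries it was Sp7, Sox9, Dlx5, Msx2, Msx1, Dlx6 and Dlx3, and every pair of neighbours overlapped except Dlx6 and Dlx3. Whether a gene fell more than another was examined with the ratio of their RPKM in each library over all 21 pairs. Dlx5 was 3.56, 3.02 and 5.02 times Sox9 in the controls and 0.766, 1.11 and 0.829 times Sox9 after knockdown. Msx2 was 2.36, 2.39 and 2.32 times Sox9 and then 0.789, 1.07 and 0.475 times. These ratios did not overlap between the groups (two-sided exact permutation p = 0.1 in each case, the smallest that 3 against 3 libraries allow, and 0.3 after Benjamini-Hochberg adjustment over 21 pairs). That smallest p was reached by 7 pairs, which were Sox9 with Msx1, Msx2, Dlx5, Dlx6 and Sp7, and Sp7 with Msx1 and Dlx5. Msx1 to Msx2 was 0.641, 0.578 and 0.815 in the controls and 0.293, 0.641 and 1.06 in the siRNA libraries, overlapping between the groups (exact permutation p = 0.9).

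Relative to the group mean, the siRNA libraries varied more than the controls in 6 of the 7 genes (by the coefficient of variation, Dlx3 being the exception), although the SD itself was smaller in the siRNA libraries for Msx1, Msx2, Dlx3 and Dlx5. Replicate 3 was the highest siRNA library in 5 genes, Msx1, Dlx5, Dlx6, Sp7 and Sox9. It was also the highest in 7 of the 8 tested markers of marrow stroma, the supporting cells from which osteoblasts arise. As likeness by Pearson correlation of log2(RPKM + 1) over the 6 libraries, with 2 groups apart, many genes matched closely, and 1639 of 11065 genes had r of at least 0.95 with Msx1 and 1473 with Msx2. Only 23 did with Sox9. The genes most like Msx2 were Gm12250 (r = 0.9997), Mak16 and Irgm1, those most like Msx1 were Arhgef17 (r = 0.9997), Cdr2l and Bcl2l2, and those most like Sp7 were Zfp945 (r = 0.9988), Snrnp70 and Ddx23. For Dlx5 they were Zfp9, Mmp14 and Lamp3, for Dlx6 Zranb2, Elk3 and Gen1, for Dlx3 Fam188a, Ints10 and Apaf1, and for Sox9 Tab3 (r = 0.9845), Ttc27 and Pigg. The r values share the libraries and the difference between the groups and are a description.

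Relatives of the 7 genes were examined next. Of all genes tested, 29.8% were lower and 14.7% higher. Of the other DLX and MSX genes (Dlx1, Dlx2, Dlx4 and Msx3), 1 of 4 reached the minimum mean. This was Dlx2, which fell from 0.670 ± 0.262 to 0.264 ± 0.0558 RPKM (SD, n = 3, log2 fold change -0.39, adjusted p = 0.0219 from limma), although the call was lost without siRNA replicate 2 or without siRNA replicate 3. Of the 8 other SP genes 5 were tested and 1 (20.0%) passed. It was Sp3, at 24 RPKM in the controls and 20.1 RPKM after knockdown (log2 fold change -0.24, adjusted p = 0.0369 from limma). With any single library other than control replicate 1 left out, Sp3 no longer passed. The median log2 fold change of the 5 was 0.01. Sox5 and Sox6, which act with Sox9 in cartilage, and its paralogs Sox8 and Sox10 were all under the minimum, with at most 0.084 RPKM in a library.

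Of 19 ligands, receptors and mediators of the BMP pathway, which induces MSX and DLX genes, 17 were tested. Of these, 11 were lower (64.7%, against 29.8% of all genes tested) and 1 was higher (against 14.7% of all genes tested). Their median log2 fold change was -0.38. Id4, a BMP-responsive inhibitor of helix-loop-helix factors, fell from 3.73 ± 0.465 to 0.603 ± 0.375 RPKM (SD, n = 3, log2 fold change -1.58). Bmpr1a, a type I BMP receptor, fell from 6.6 ± 0.596 to 2.29 ± 0.414 RPKM (log2 fold change -1.21). Smad4, the common partner of the BMP SMADs, changed least among those that fell, from 23.2 to 19.1 RPKM (log2 fold change -0.27), and Id2 was the gene that rose, from 223 to 283 RPKM (log2 fold change 0.34, adjusted p = 0.0427 from limma). The rise of Id2 passed in only 2 of the 6 fits that each left out a library, those without control replicate 2 and without siRNA replicate 3.

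Other transcription factors of osteoblasts and skeletal mesenchyme were lower in 15 of 19 tested genes out of 25 (78.9%, against 29.8% of all genes tested). Of them 0 were higher (against 14.7% of all genes tested). The median log2 fold change was -1.09. Prrx2 and Tbx15, factors of limb and craniofacial mesenchyme, had the lowest log2 fold changes on the log2(RPKM + 1) scale, Prrx2 from 12.5 ± 1.54 to 1.86 ± 0.478 RPKM (log2 fold change -2.24) and Tbx15 from 8.10 ± 1.11 to 1.25 ± 0.319 RPKM (SD, n = 3, log2 fold change -2.02). By the ratio of the means, which uses no pseudocount, the order differed, with Runx2 at 12.5-fold and Twist2 at 7.49-fold lower, against 6.7-fold for Prrx2 and 6.47-fold for Tbx15. Cbfb, the partner of RUNX proteins, and Atf4, a factor of amino acid supply and late osteoblasts, are expressed in many cell types and changed the least among those that passed, with log2 fold changes of -0.21 and -0.30.

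Downstream, the genes of osteoblast matrix and mineral were divided. Of 17 tested genes out of 20, 10 were lower (58.8%, against 29.8% of all genes tested) and 4 higher (against 14.7% of all genes tested). The median log2 fold change of the 17 was -1.13. Postn, a matrix protein of periosteum, fell from 36.5 ± 4.97 to 3.6 ± 1.99 RPKM (SD, n = 3, log2 fold change -3.10), and Col1a1, the main chain of bone collagen, from 488 ± 144 to 72.1 ± 28.5 RPKM (log2 fold change -2.78). Phospho1, a phosphatase of matrix vesicles, rose from 4.46 ± 0.566 to 7.61 ± 0.516 RPKM (log2 fold change 0.66), and Dmp1, an osteocyte matrix protein, from 0.0227 ± 0.0225 to 0.424 ± 0.117 RPKM (log2 fold change 0.47). Dmp1 reached the minimum mean only through the siRNA libraries, so its place among the 4 is not independent of its direction. Of the cartilage genes regulated by SOX9, 7 of 14 were tested and 3 were lower (42.9%, against 29.8% of all genes tested). These were Col11a1, Col2a1 and Col10a1. Col11a1 went from 6.68 to 0.606 RPKM (log2 fold change -2.23) and Col2a1 from 4.99 to 1.52 RPKM (log2 fold change -1.27). Col10a1, at 0.411 and 0.096 RPKM, reached the minimum only through the controls, as did Bmp4 and Zfp521 in the lists above, and their falls are not independent of it. Acan, Hapln1 and Col9a2, also of this list, were at 0.018 RPKM or less in every library. Others of the list were expressed but did not pass. Comp was at 1.09 RPKM in the controls and 0.799 RPKM after knockdown, and Col11a2 at 0.347 and 0.471 RPKM.

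**Figure D3:**
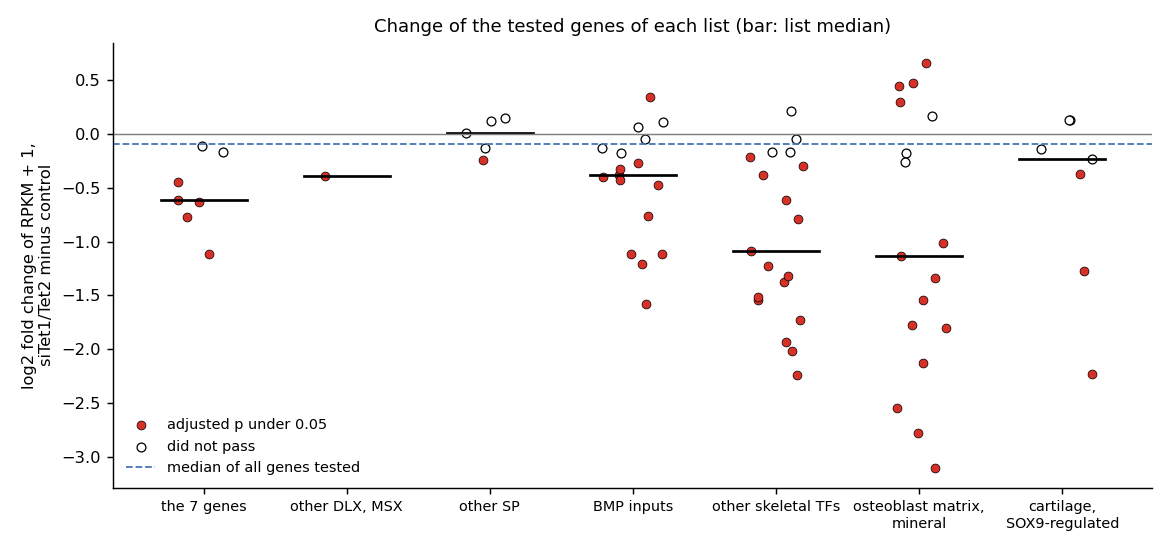
Log2 fold change of RPKM + 1 (vertical axis, siTet1/Tet2 minus control) of each tested gene of the 7 and of the related lists, filled where the adjusted p was under 0.05, with the list median as a bar and the median of all genes tested, -0.09, as a dashed line. The 7 genes have a median of -0.61, the other skeletal transcription factors -1.09 and the matrix and mineral genes -1.13.

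Markers of cell types were examined too, some of which changed and some not. Of all genes tested, 29.8% were lower and 14.7% higher. Of 10 markers of marrow stroma, 8 were tested, 5 were lower and 1, Vcam1, was higher, and their summed level was between 476 and 686 RPKM in the controls and between 132 and 194 RPKM in the siRNA libraries. Col1a2, a collagen gene that is also in the matrix list, made up most of that sum, with 437 RPKM in the controls and 76.4 RPKM after knockdown. The markers did not move alike. Pdgfra, a receptor of mesenchymal progenitors, fell from 9.92 ± 1.52 to 0.944 ± 0.145 RPKM and Cxcl12, a chemokine of marrow stroma, from 38.9 ± 6.37 to 3.99 ± 0.832 RPKM (SD, n = 3), whereas Eng went from 23.8 to 15.6 RPKM, Nt5e and Mcam did not pass, and Vcam1 rose from 16.9 to 55.9 RPKM. Thy1 and Lepr, which also define these cells, were at 0.146 RPKM or less in every library. All 12 macrophage markers were present in both groups, and 5 rose, 2 fell and 5 did not pass. They summed to between 7980 and 10600 RPKM in the controls and between 15600 and 18500 RPKM after knockdown. Lyz2, the macrophage lysozyme, made up most of that difference, with 4440 RPKM in the controls and 11300 RPKM after knockdown. Of 6 adipocyte markers 5 rose and Pparg fell, and Adipoq went from 3.35 to 7.6 RPKM. Of 5 endothelial markers 4 were tested, 2 were lower and 1 was higher. Of 8 chondrocyte markers 4 were tested, 1 was lower and 3 did not pass. In bulk RNA, fewer stromal cells and less RNA of a gene per stromal cell cannot be told apart.

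The 7 genes were therefore also set against the stromal markers. In each library, the median log2(RPKM + 0.01) of the 7 stromal markers with a mean of at least 1 RPKM was subtracted, an alternative chosen after the data had been seen. That median was between 4.38 and 4.64 in the controls and between 1.89 and 2.65 in the siRNA libraries, a shift of -2.17. With 7 markers the median is the level of 1 gene, which was Pdgfrb in every siRNA library but not in every control. Relative to it, Dlx5, Msx1, Msx2, Dlx6 and Dlx3 did not pass, with differences of -0.26 (95% interval -0.92 to 0.40), 0.00 (-0.83 to 0.82), 0.16 (-0.57 to 0.88), 0.30 (-0.57 to 1.17) and 0.60 (-0.75 to 1.95) on the log2 scale. Of all genes tested, 7.73% likewise did not pass. Sp7 was 0.91 higher (95% interval 0.29 to 1.53, adjusted p = 0.00433 from limma) and Sox9 1.8 higher (95% interval 1.02 to 2.58, adjusted p = 7.28e-06 from limma), as were 91.0% of all genes tested. None of the 7 was lower relative to this median (0 genes, and 1.30% of all genes tested). Subtracting 1 level per library gives every gene the same added error, while limma pools the spread over all genes. The intervals and p-values here, and the calls against single markers below, therefore do not carry the full uncertainty of 3 against 3 libraries. The intervals of the 5 genes span differences from -0.92 to 1.95, and the part of the stromal cells in the fall of the 7 genes was not tested separately.

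The result depended on the marker. Relative to Pdgfra or Cxcl12 alone, 0 of the 7 genes were lower (0.430% and 0.445% of all genes tested) and all 7 were higher. Relative to Col1a2 or Pdgfrb alone, 0 were lower (0.709% and 0.724% of all genes) and Sp7 and Sox9 were higher. The share of all genes that were higher was not counted for single markers. Each of these markers fell further than the stromal median, with log2 changes of -3.38 (Pdgfra), -3.29 (Cxcl12), -2.57 (Col1a2) and -2.53 (Pdgfrb) against -2.17. Since 91.0% of all genes were higher relative to that median, being higher cannot be read as particular to the 7 genes. Relative to Eng alone, Msx1, Msx2, Dlx5 and Dlx6 were lower (10.9% of all genes), with Dlx5 at -1.83 and Msx2 at -1.41 on the log2 scale. Relative to Mcam alone, the same 4 genes and Sp7 were lower (11.7% of all genes), and relative to Vcam1, the marker that rose, all 7 were (97.1% of all genes). Sox9 was the highest of the 7 against each marker, and Dlx5 the lowest, as follows from their own fold changes.

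**Figure D4:**
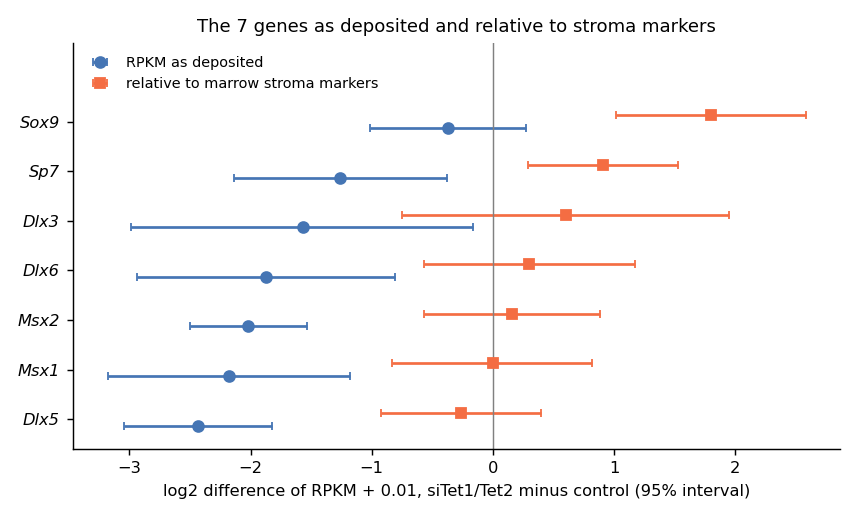
Log2 difference of RPKM + 0.01 between the groups (horizontal axis, siTet1/Tet2 minus control, with 95% interval) for the 7 genes, as deposited (blue) and after subtracting the median of 7 marrow stroma markers in each library (orange). Relative to this median, the intervals of Sp7 and Sox9 lie above 0 and those of the other 5 genes include 0. The orange intervals do not carry the full error that the subtracted level adds to every gene.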

How the data were processed

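RNA-seq of 3 control and 3 siTet1/Tet2 libraries was used. The authors trimmed adaptors, mapped paired-end reads to GRCm38 and estimated abundance with DNASTAR Lasergene, and the deposited values are linear RPKM (FPKM in the methods). Annotation release, strand use and handling of multiply matching reads are not given in the sources used here. The deposited column of the authors' p-values was not used. The members, lists, thresholds and alternatives were chosen with earlier results of these data known, and the centring on stromal markers, by their median or each alone, was added after these values had been seen.

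For 37 repeated symbols only the row of highest mean entered. The 13266 genes averaging 0.1 RPKM or more were compared on log2(RPKM + 1) with limma 3.58.1 in R 4.3.3 (lmFit, eBayes with trend), two-sided, with Benjamini-Hochberg adjustment. The code was tested on simulated data. Named list genes were the 2 lowest and 2 highest log2 fold changes with an adjusted p under 0.05, or where fewer passed, those that passed and the highest means. Runx2, Twist2, Bmp4, Zfp521, Lyz2, Pdgfra, Pdgfrb, Col1a2, Eng, Nt5e, Mcam, Cxcl12, Vcam1, Pparg, Adipoq, Thy1, Lepr, Acan, Hapln1, Col9a2, Comp and Col11a2 were named after their values were seen. Older symbols in the table (Emr1 for Adgre1, Lect1 for Cnmd) were matched through RefSeq. For an estimate of depth, low values of genes that have 1 GENCODE M21 transcript were converted to reads over a range of depths, and the depth giving the most whole reads was taken. Between 55.9% and 60.5% of the values used lay within 0.1 of a whole read, where the median over all depths tried was 14.8% to 16.1%. Read numbers are therefore approximate, and no count test was run. Coordinates follow GENCODE M21 (GRCm38).

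The sample labels share replicate numbers between the groups. Deviations from the group means correlated across genes with r = 0.149, 0.117 and 0.462 for numbers 1, 2 and 3, each above 0.1, and a further fit therefore took the number as a block. Control replicate 1 correlated more with siRNA replicate 2 (r = 0.332), and control replicate 2 more with siRNA replicate 1 (r = 0.205). For numbers 1 and 2 the values therefore do not single out the pair with the same number. The block rests on the values alone, since the labels do not say what a number stands for. Within a group, r between libraries was 0.992 to 0.997.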

Additional observations from a re-analysis of the deposited data

How the results depend on the processing

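With 3 libraries a group and values of about 3 to 203 reads, only large changes of the 7 genes could be shown, and the fold change of a low gene depends on the pseudocount by construction. Dlx5, Msx1 and Msx2 kept a lower level and an adjusted p under 0.05 in all their alternatives apart from the centring on stromal markers, with log2 fold changes of -2.43 to -0.91, -2.18 to -0.45 and -2.02 to -0.57. Dlx6 lost its call without a filter on low values (adjusted p = 0.0834), and Sp7 without a filter (0.190), after quantile normalization (0.0521), with gene-wise variance (0.0961) and without siRNA replicate 2 (0.058). Apart from the centring on stromal markers, by their median or each alone, Dlx3 (0.063 to 0.454) and Sox9 (0.0801 to 0.826) stayed above 0.05. Without control replicate 3 or with a mean of at least 1 RPKM, Dlx3 was not tested, and the latter left only Dlx5 and Sp7. These 2 reached 1 RPKM only through their controls (means of 1.96 and 1.76 RPKM, against 0.356 and 0.818 RPKM after knockdown). Their calls under that filter are therefore not independent of their direction.

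The number of the 7 genes that were lower, 5, became 3 without a filter and 0 relative to the median of the stromal markers. It was 4 to 5 with a library left out. With a mean of at least 1 RPKM it was 2, Dlx5 and Sp7, which reach that mean only through the controls. The number that passed the study's thresholds on the log2(RPKM + 1) scale, 1, became 5 with a pseudocount of 0.1 and 6 with 0.01. It was 3 after all libraries were scaled to 1 sum, 0 with quantile normalization and 5 with the ratio of the group means. With a library left out it was 0 to 1. Outside the main fit, the ratio and the centred fits, the share of all genes was not counted. The counts of the 7 genes under those other settings therefore cannot be set against all genes. Quantile normalization moved the median of all genes from -0.09 to 0.06 and turned Sox9 to 0.06. Relative to single markers the number of the 7 genes that were lower was 0 (Pdgfra, Cxcl12, Col1a2 and Pdgfrb), 4 (Eng), 5 (Mcam) or 7 (Vcam1). Centring on the median of the stromal markers turned Msx2 to 0.16, Dlx3 to 0.60, Dlx6 to 0.30, Sp7 to 0.91 and Sox9 to 1.8. The replicate block kept all calls of the 7 genes, with 5 lower.

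Among the related lists, the other DLX and MSX genes lower went from 1 to 0 without a filter, with a mean of at least 1 RPKM, quantile normalization or gene-wise variance, and were 0 to 1 with a library left out. The SP genes lower went from 1 to 0 without a filter, with median ratio scaling, quantile normalization or gene-wise variance and were 0 to 1 with a library left out, and those higher went from 0 to 2 with quantile normalization and 0 to 1 with a library left out. BMP genes lower went from 11 to 7 without a filter. BMP genes higher went from 1 to 0 without a filter, without trend or with gene-wise variance and to 3 with quantile normalization, and were 0 to 1 with a library left out. Of the other skeletal transcription factors 1 was higher under quantile normalization and 1 under median ratio scaling, and of the cartilage genes 2 were higher with quantile normalization. The cause was not tested.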

Other observations

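Several relatives of the 7 genes were below the minimum mean and were not tested, and their values are given here without a comparison. Dlx1 had 0.062, 0.087 and 0.107 RPKM in the controls and 0.001, 0.015 and 0.041 RPKM after knockdown. Dlx4, which lies 15.2 kb from Dlx3, was at 0.053, 0.149 and 0.094 RPKM and then at 0.001, 0.023 and 0.108 RPKM. Nkx3-2, a homeobox gene of the axial skeleton and cartilage, was at 0.204, 0.146 and 0.086 RPKM in the controls and at 0.001, 0.036 and 0.001 RPKM after knockdown. Sox5 was at 0.032, 0.084 and 0.041 RPKM and then at 0.014, 0.007 and 0.007 RPKM. The value 0.001 is the lowest in the table.

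Genes next to the 7 on the chromosome did not move alike. Itga3, an integrin chain 43.3 kb from Dlx3, was at 2.16 RPKM in the controls and 0.545 RPKM after knockdown (log2 fold change -1.04, adjusted p = 0.000165 from limma). Stx18, a vesicle fusion protein 214 kb from Msx1, was at 11.5 and 11 RPKM (adjusted p = 0.587 from limma).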
